A study of Mus musculus with 6 samples.

Results

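The 10 genes described here encode cell adhesion molecules built from immunoglobulin domains: the L1 family (L1cam, Chl1, Nrcam and Nfasc), the contactins Cntn1 and Cntn2, the neural cell adhesion molecules Ncam1 and Ncam2, the vascular cell adhesion molecule Vcam1 and the synaptic cell adhesion molecule Cadm2. They were taken by symbol from a table of read counts for 26264 mouse genes, where each symbol was found once. All 10 passed the filter on low counts that left 14554 genes for testing. RNA was sequenced in bulk from cultures of neural stem cells of the adult mouse spinal cord that carried a PDGFRa-GFP reporter and were separated by fluorescence-activated cell sorting. The reporter marks cells that use the gene of platelet-derived growth factor receptor alpha, a marker of oligodendrocyte precursor cells, and the study asks how such cultures give rise to the oligodendrocyte lineage. The comparison sets 3 GFPpos libraries, with the genotype label PDGFRaGFP/+, against 3 GFPneg libraries, with the genotype label PDGFRaGFP/-. Both fractions share the C57BL6J background, the spinal cord origin and a medium with EGF and FGF2. The labels do not say what sets the genotype entries apart, how the reporter allele was made, how old the animals were, or whether cells of several animals were pooled.

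Adhesion molecules of this superfamily sit on the cell surface, bind to partners on neighbouring cells or in the matrix, and pass that contact on to the cytoskeleton. L1 family proteins cross the membrane and tie to the spectrin skeleton through ankyrin, whereas contactins are held in the membrane by a lipid anchor and signal through partners beside them. In oligodendrocytes and their precursors, members of these families are known for migration, for contact with axons and for building the paranodal junction between myelin and axon.

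A stretch that the L1 family members share is shown, namely the coding sequence around the cytoplasmic motif that binds ankyrin. Its relation to their RNA levels was not tested. The sequences are 75 bases each from mouse GENCODE M21 transcripts of the GRCm38 build, read 5′ to 3′ on the coding strand, and the capitals mark the 5 codons of the motif, which was found in the longest open reading frame.
L1cam: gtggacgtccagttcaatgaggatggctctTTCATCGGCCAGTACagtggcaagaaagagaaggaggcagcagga
Chl1: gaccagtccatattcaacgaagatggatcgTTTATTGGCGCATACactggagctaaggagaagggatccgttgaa
Nrcam: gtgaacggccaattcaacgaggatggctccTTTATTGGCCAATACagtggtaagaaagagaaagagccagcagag
Nfasc: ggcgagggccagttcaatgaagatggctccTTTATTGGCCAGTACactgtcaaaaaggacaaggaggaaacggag
Over these 75 bases L1cam and Nrcam were 82.7% identical, L1cam and Nfasc 76%, and Nrcam and Nfasc 74.7%. Chl1 stood farther away, with 58.7% identity to L1cam, 62.7% to Nfasc and 64% to Nrcam. Within the motif, counted from 1 at the first capital base, Chl1 differed from Nrcam at G10C and C11A, with the base of Chl1 given first. Both bases lie in the fourth codon. The search for the motif fixed the amino acid of every codon but the fourth, so no other codon could differ in amino acid. The motif of Nrcam differed from that of Nfasc by A12G alone, with the base of Nrcam given first.

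Depth lay between 36846570 and 45207335 counts per GFPpos library and between 31067850 and 32869705 per GFPneg library. Pdgfra, the gene behind the sort, had 237, 205 and 245 CPM (counts relative to a library size scaled by the trimmed mean of M values) in GFPpos replicates 1, 2 and 3, against 8.04, 19.3 and 13.9 CPM in GFPneg replicates 1, 2 and 3. The 13 other markers of oligodendrocyte precursors summed to 4672–4858 CPM in GFPpos libraries and 2321–2647 CPM in GFPneg libraries. Neural stem cell markers, which fit the labelled cell type, were present in both fractions, at 1775–1994 CPM in GFPpos and 5605–6335 CPM in GFPneg libraries, and astrocyte markers summed to 490–629 CPM in GFPpos and 3723–4773 CPM in GFPneg libraries. Markers of microglia stayed at or under 1.14 CPM in GFPpos and 2.65 CPM in GFPneg libraries, with C1qa, C1qb and Tyrobp at 0 throughout. Replicate 2 stood apart from the other libraries of its fraction. The chi-square per degree of freedom over genes was 18.9 and 14.3 for the GFPpos pairs with replicate 2, against 9.83 for the other GFPpos pair, and 34.2 and 33.0 for the GFPneg pairs with replicate 2, against 17.6 for the other GFPneg pair. With all libraries 8058 genes were called by edgeR, and 8637 were called without GFPneg replicate 2.

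Across the 10 adhesion genes, 6 were higher in GFPpos cells (Cntn1, Cntn2, Nfasc, L1cam, Cadm2 and Ncam2), 3 were lower (Vcam1, Chl1 and Nrcam), and Ncam1 did not pass the test. Without both libraries of number 2 the counts were again 6 higher and 3 lower. The test was edgeR's quasi-likelihood test on the counts with Benjamini-Hochberg adjustment over all tested genes and a threshold of 0.05 on the adjusted p. Of all tested genes, 55.4% were called, 26.1% as higher and 29.2% as lower, so a count of 9 called among 10 stands against a background in which a call was common. The GFPpos and GFPneg values did not overlap for 9 of the 10 genes, against 64.2% of all tested genes. The median log2 fold change of GFPpos over GFPneg was 0.75 over the 10 genes and -0.0058 over all tested genes, and 19.4% of all tested genes, called or not, had an absolute log2 fold change above 1. The precursor markers, of which all 12 tested genes were higher in GFPpos cells, moved the same way as the 6 higher adhesion genes. These 12 include Pdgfra, the gene behind the sort, whose direction was set by the sort. The astrocyte markers, with 11 of 11 tested genes lower, and the neural stem cell markers, with 9 of 10 lower, moved the same way as Vcam1, Chl1 and Nrcam, and the part of these cell types in the results was not tested. In bulk RNA, fewer cells of a type and less RNA per cell cannot be told apart. The labels do not say whether replicates came from separate cultures or animals, so the p-values measure the spread between these libraries, which may be technical.

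**Figure D1:**
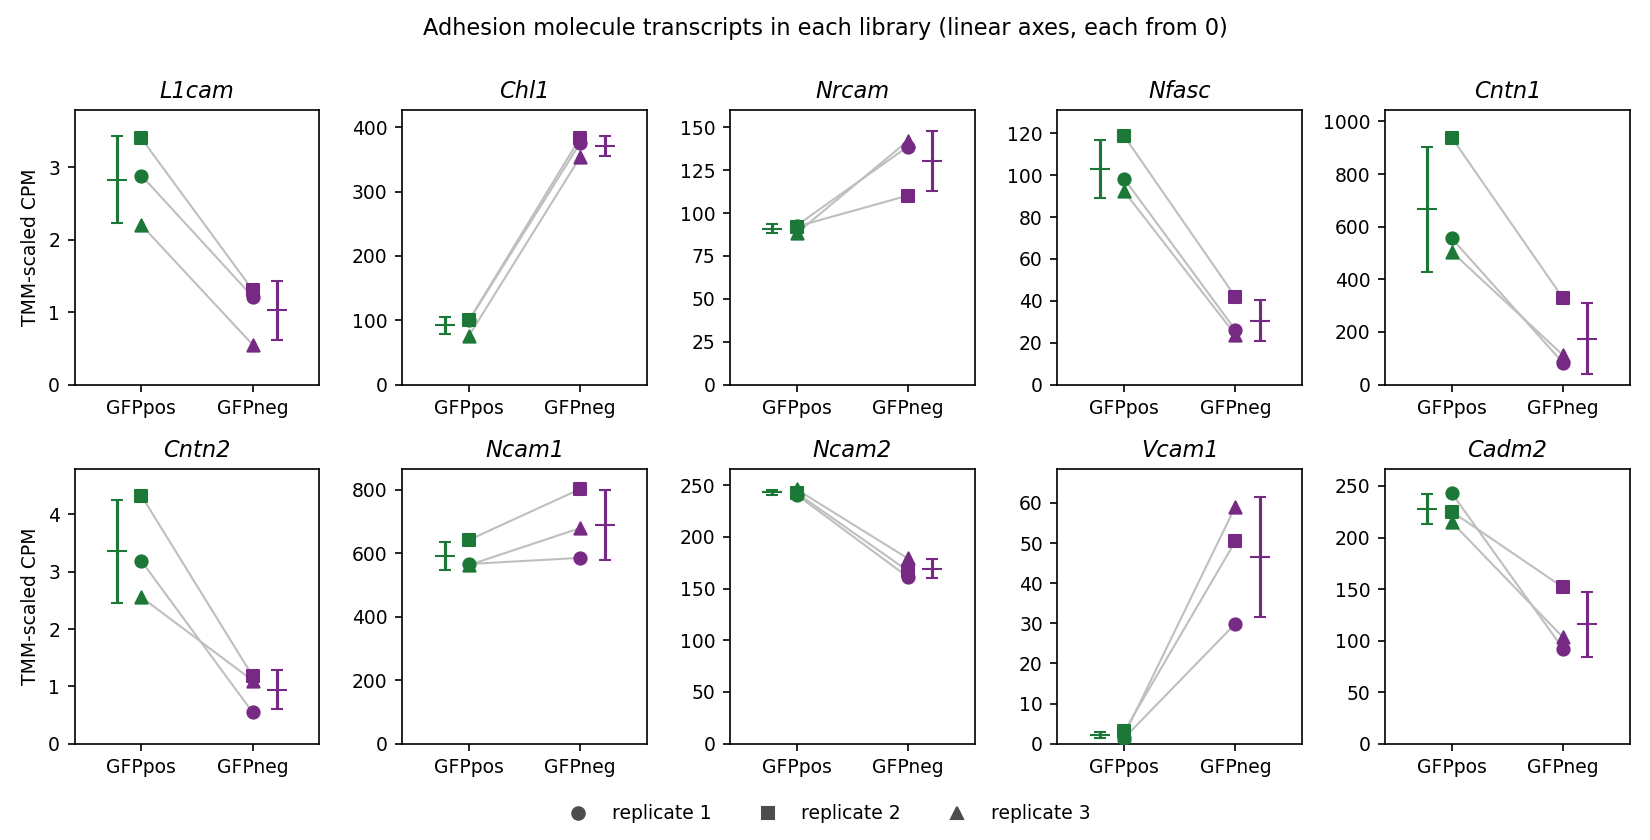
TMM-scaled CPM of each adhesion gene in every library, with GFPpos at the left and GFPneg at the right of each panel; symbols are replicates 1 to 3, grey lines join libraries that share a number, and the crossbars give the mean ± SD (n = 3 each). Each panel has its own linear axis from 0. The 3 GFPpos points of Chl1 lie between 76.1 and 100.2 CPM, under all GFPneg points, and the points of Ncam1 are the ones that overlap between fractions.

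Among the L1 family, Chl1 and Nrcam were lower in GFPpos cells. Chl1 (Entrez 12661, chromosome 6), the close homologue of L1, which takes part in neurite growth and in the positioning of neurons, had 99.7, 100.2 and 76.1 CPM in GFPpos replicates 1, 2 and 3, against 376, 384 and 354 CPM in GFPneg replicates 1, 2 and 3. Every GFPpos library lay far below every GFPneg library, and the libraries within a fraction were close together. The mean was 92.0 ± 13.8 CPM in GFPpos and 371 ± 15.5 CPM in GFPneg cells (SD, n = 3 each), and the log2 fold change was -2.01 (SE 0.11, by edgeR with adjusted p = 4.95e-06), so that Chl1 RNA was 4.04-fold lower in GFPpos cells. Nrcam (Entrez 319504, chromosome 12), which helps gather sodium channels at nodes of Ranvier and guides axons, had 92.7, 92.2 and 88.2 CPM in GFPpos libraries, against 139, 110.2 and 142 CPM in GFPneg libraries. The GFPpos libraries lay within a few CPM of each other and all below the lowest GFPneg library, replicate 2. Nrcam was lower in GFPpos cells, by -0.52 on the log2 scale (SE 0.094, edgeR adjusted p = 0.00205), a smaller change than that of Chl1.

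Nfasc and L1cam were higher in GFPpos cells. Nfasc (Entrez 269116, chromosome 1), whose product has axonal isoforms at the node and a glial isoform at the paranode, had 98.3, 119 and 92.3 CPM in GFPpos replicates 1, 2 and 3, against 26.1, 41.9 and 23.8 CPM in GFPneg replicates 1, 2 and 3. Replicate 2 was the highest library in both fractions, and the fractions did not overlap. The mean was 103 ± 13.8 CPM in GFPpos and 30.6 ± 9.87 CPM in GFPneg cells (SD, n = 3 each), and Nfasc was higher in GFPpos cells by 1.75 on the log2 scale (SE 0.21, edgeR adjusted p = 0.000207). The counts are summed over all transcripts of the gene, so the axonal and glial isoforms of Nfasc were not told apart.

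L1cam (Entrez 16728, chromosome X), the founding member of the family, which mediates axon growth and bundling, was rare in both fractions. It had 106, 154 and 81 counts in GFPpos replicates 1, 2 and 3, against 40, 41 and 17 counts in GFPneg replicates 1, 2 and 3. These are 2.89, 3.40 and 2.20 CPM in GFPpos libraries, against 1.21, 1.31 and 0.551 CPM in GFPneg libraries. The lowest GFPpos library was above the highest GFPneg library. The log2 fold change was 1.46 (SE 0.34, edgeR adjusted p = 0.00676), and its standard error was larger than those of Chl1, Nrcam and Nfasc. In GENCODE M21, 100 exon bases of L1cam overlap Arhgap4 on the same strand, and reads there cannot be assigned to either gene. Markers of neurons, which are a known source of L1cam, summed to 49.2–58.0 CPM in GFPpos libraries and 18.6–28.2 CPM in GFPneg libraries, with Slc17a6 at 0 in every library. Of 8 tested neuron markers 5 were higher and 1 was lower in GFPpos cells, and their part in the result was not tested.

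Both contactins were higher in GFPpos cells. Cntn1 (Entrez 12805, chromosome 15), which binds neurofascin at the paranode and serves as a surface ligand for glial cells, had 556, 938 and 505 CPM in GFPpos replicates 1, 2 and 3, against 82.4, 329 and 112 CPM in GFPneg replicates 1, 2 and 3. Replicate 2 stood well above the other replicates in both fractions, yet the lowest GFPpos library remained above the highest GFPneg library. The mean was 666 ± 237 CPM in GFPpos and 174 ± 134 CPM in GFPneg cells (SD, n = 3 each), and the log2 fold change was 1.94 (SE 0.50, edgeR adjusted p = 0.0112). Without GFPneg replicate 2 the log2 fold change of Cntn1 was 2.79 (edgeR adjusted p = 2.9e-05), and the call was lost without both libraries of number 1, at 1.72 (edgeR adjusted p = 0.054), and without both of number 3, at 1.87 (edgeR adjusted p = 0.0614). The same-numbered pairs differed by 2.75, 1.51 and 2.17 on the log2 scale, all toward GFPpos.

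The precursor markers were read by replicate beside Cntn1, and they did not all follow it. In the GFPneg fraction 12 of the 14 listed markers were highest in replicate 2, while Cspg4 was lowest there. Among these 12, Bmp4 and Enpp6 reached at most 0.0956 and 0.255 CPM in GFPneg libraries and were not tested. In GFPpos replicates 1, 2 and 3 Enpp6 was at 0.136, 4.08 and 0.517 CPM. The share of all genes that were highest in replicate 2 was not counted. In the GFPpos fraction 8 of the 14 were highest in replicate 2 and 4 were lowest there. Sox10, a transcription factor of the oligodendrocyte lineage, was at 39.4, 93.6 and 45.4 CPM in GFPpos replicates 1, 2 and 3, against 2.34, 12.5 and 3.53 CPM in GFPneg replicates 1, 2 and 3. Olig2, another such factor, was at 889, 844 and 850.3 CPM in GFPpos replicates 1, 2 and 3, against 547, 588 and 494 CPM in GFPneg replicates 1, 2 and 3. Sox10 was thus highest in replicate 2 of both fractions, as Cntn1 was, whereas Olig2 was highest there in the GFPneg fraction and lowest there in the GFPpos fraction. The sum of the 13 markers other than Pdgfra was 4858, 4673 and 4672 CPM in GFPpos replicates 1, 2 and 3, against 2544, 2647 and 2321 CPM in GFPneg replicates 1, 2 and 3. Olig1, the most abundant marker, made up a large part of that sum. It was at 2182, 2019 and 2123 CPM in GFPpos replicates 1, 2 and 3, against 1526, 1551 and 1386 CPM in GFPneg replicates 1, 2 and 3. The sum therefore says little about the rarer markers. Cspg4, Sox10, Olig1 and Olig2 were chosen after their values were seen, and the part of precursor cells in the level of Cntn1 was not tested.

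Cntn2 (Entrez 21367, chromosome 1), known as TAG-1, a molecule of growing axons and of the juxtaparanode, was rare. It had 117, 196 and 94 counts in GFPpos replicates 1, 2 and 3, against 18, 37 and 34 counts in GFPneg replicates 1, 2 and 3. These are 3.19, 4.33 and 2.56 CPM in GFPpos libraries, against 0.546, 1.18 and 1.10 CPM in GFPneg libraries. The lowest GFPpos library lay above the highest GFPneg library. The log2 fold change was 1.84 (SE 0.34, edgeR adjusted p = 0.00208). As for L1cam, the neuron markers given above moved the same way as Cntn2, and their part was not tested.

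The NCAMs were abundant in both fractions, with fold changes nearer to 0 than those of the contactins. Ncam1 (Entrez 17967, chromosome 9), the main carrier of polysialic acid on neural cells, had 566, 642 and 563 CPM in GFPpos replicates 1, 2 and 3, against 586, 803 and 679 CPM in GFPneg replicates 1, 2 and 3. The fractions overlapped, since GFPpos replicate 2 lay above GFPneg replicate 1, although within each number the GFPpos library had the smaller value. The log2 fold change was -0.22 (SE 0.11, edgeR adjusted p = 0.129), which did not pass the threshold. With the replicate number as a block it was -0.21 (edgeR adjusted p = 0.0313), a lower call in GFPpos cells, and without GFPneg replicate 1 it was -0.33 (edgeR adjusted p = 0.0251). In GENCODE M21, 4.81% of the exon bases of Ncam1 lie opposite the antisense gene Gm11149, and the strand setting of the counting is not given in the sources used here.

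Ncam2 (Entrez 17968, chromosome 16), the relative of Ncam1 best known from olfactory axons, was higher in GFPpos cells. It had 241, 242 and 246 CPM in GFPpos replicates 1, 2 and 3, against 161, 167 and 179 CPM in GFPneg replicates 1, 2 and 3. Within each fraction the libraries were close, and the gap between fractions was wider than either spread. The mean was 243 ± 2.63 CPM in GFPpos and 169 ± 9.13 CPM in GFPneg cells (SD, n = 3 each), a difference of 0.52 on the log2 scale (SE 0.055, edgeR adjusted p = 0.000113). Its fold change was smaller than those of Cntn1 and Nfasc, and its relative spread was also smaller.

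Vcam1 had the largest fold difference of the 10 genes. Vcam1 (Entrez 22329, chromosome 3), a ligand of the integrin made of Itga4 and Itgb1 that is also known from neural stem cells of the adult brain, had 51, 138 and 78 counts in GFPpos replicates 1, 2 and 3, against 987, 1583 and 1824 counts in GFPneg replicates 1, 2 and 3. These are 1.39, 3.05 and 2.12 CPM in GFPpos libraries, against 29.9, 50.5 and 59.1 CPM in GFPneg libraries. The highest GFPpos library stood far below the lowest GFPneg library, and the GFPneg libraries spread widely among themselves. The log2 fold change was -4.39 (SE 0.33, edgeR adjusted p = 2.36e-05), which made Vcam1 RNA 21.0-fold lower in GFPpos cells. Endothelial markers, from cells in which Vcam1 is well known, summed to 3.25–3.89 CPM in GFPpos and 1.91–3.73 CPM in GFPneg libraries, with Cldn5 at 0 in every library. Fibroblast and mural markers summed to 3.95–6.73 CPM in GFPpos and 80.4–152 CPM in GFPneg libraries. Both tested markers of that list, Notch3 and Col1a1, were lower in GFPpos cells. Notch3 was at 3.57, 6.53 and 6.04 CPM in GFPpos replicates 1, 2 and 3, against 78.5, 98.8 and 150.1 CPM in GFPneg replicates 1, 2 and 3. The other 8 markers, Pdgfrb and Col1a1 among them, summed to 0.136–0.381 CPM in GFPpos libraries and 1.91–2.33 CPM in GFPneg libraries, and the part of such cells in the level of Vcam1 was not tested. The astrocyte and neural stem cell sums given above moved with Vcam1 as well.

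Cadm2 (Entrez 239857, chromosome 16), which binds other Cadm proteins across contacts between neurons and between axons and glia, was higher in GFPpos cells. It had 243, 225 and 215 CPM in GFPpos replicates 1, 2 and 3, against 92.2, 152 and 103 CPM in GFPneg replicates 1, 2 and 3. The highest GFPneg library, replicate 2, stayed below every GFPpos library. The log2 fold change was 0.98 (SE 0.17, edgeR adjusted p = 0.00148), so that Cadm2 RNA was 1.97-fold higher in GFPpos cells. Antisense overlap in GENCODE M21 covers 2.61% of the exon bases of Cadm2, from 1700010K23Rik.

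**Figure D2:**
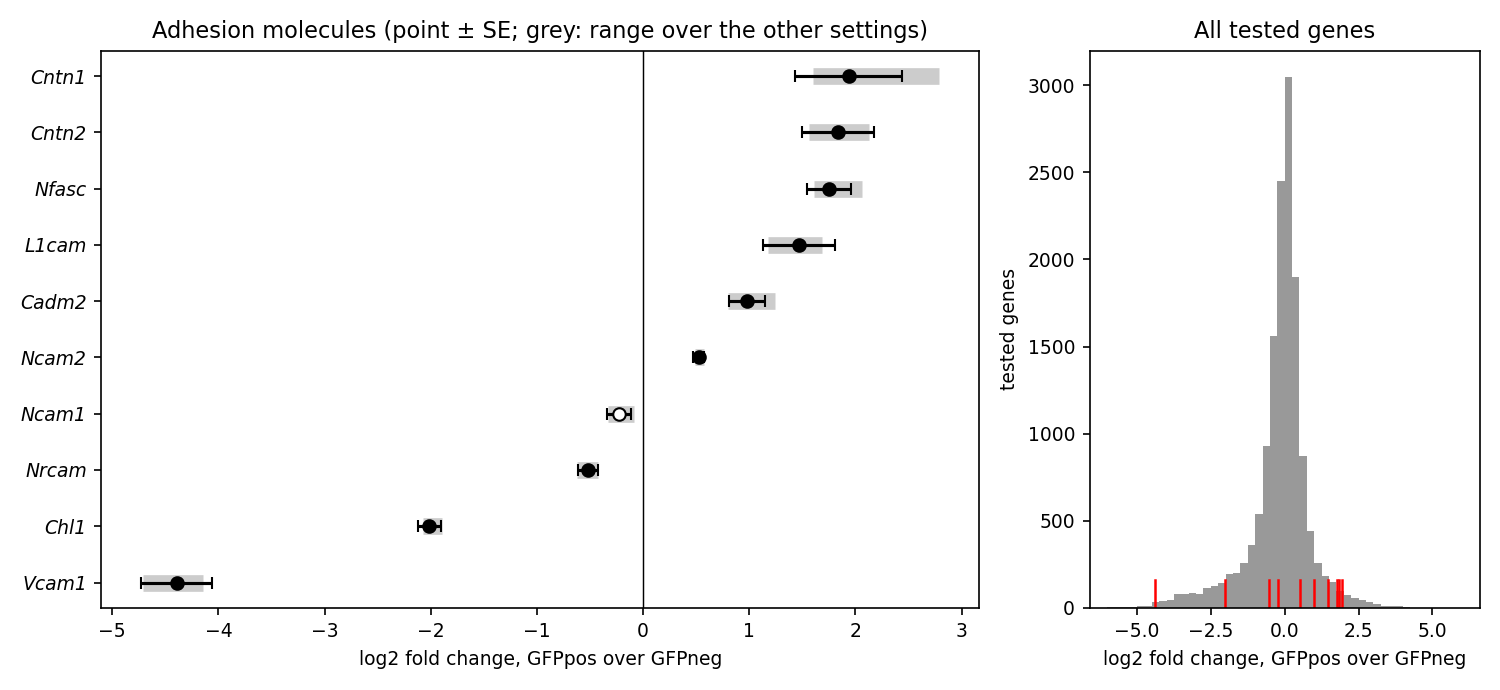
Left, log2 fold change of GFPpos over GFPneg for the 10 adhesion genes, with points ± SE from edgeR, filled where the adjusted p is below 0.05, and grey bars for the range over 17 other settings. Right, histogram of the same quantity over 14554 tested genes, with red ticks at the 10 genes. Vcam1 at -4.39 and Chl1 at -2.01 lie in the lower tail, and Cntn1 at 1.94, Cntn2 at 1.84, Nfasc at 1.75 and L1cam at 1.46 in the upper one.

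Pairs of relatives were then compared as ratios of counts within a library, which do not depend on how libraries are scaled to each other. The ratio of L1cam to Chl1 was 0.0291, 0.0340 and 0.0291 in GFPpos replicates 1, 2 and 3, against 0.00327, 0.00344 and 0.00160 in GFPneg replicates 1, 2 and 3. The ratio of Nrcam to Nfasc was 0.943, 0.777 and 0.956 in GFPpos libraries, against 5.33, 2.63 and 5.98 in GFPneg libraries. Neither ratio overlapped between fractions, and the difference of the mean log2 ratio, GFPpos minus GFPneg, was 3.55 for L1cam to Chl1 and -2.30 for Nrcam to Nfasc. The ratio of Ncam1 to Ncam2 was 2.35, 2.65 and 2.29 in GFPpos libraries, against 3.63, 4.80 and 3.79 in GFPneg libraries, a log2 difference of -0.74 with no overlap. The ratio of Cntn1 to Cntn2 was 174, 216 and 196 in GFPpos libraries, against 147, 275 and 100.1 in GFPneg libraries, and here the GFPneg libraries spanned the GFPpos ones, with a log2 difference of 0.29. An exact two-sided permutation test over the libraries gave p = 0.1 for L1cam to Chl1, Nrcam to Nfasc and Ncam1 to Ncam2, and p = 0.6 for Cntn1 to Cntn2. With 3 libraries against 3, 0.1 is the smallest p that this exact test can give, so none of the 4 pairs could pass a threshold of 0.05.

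**Figure D3:**
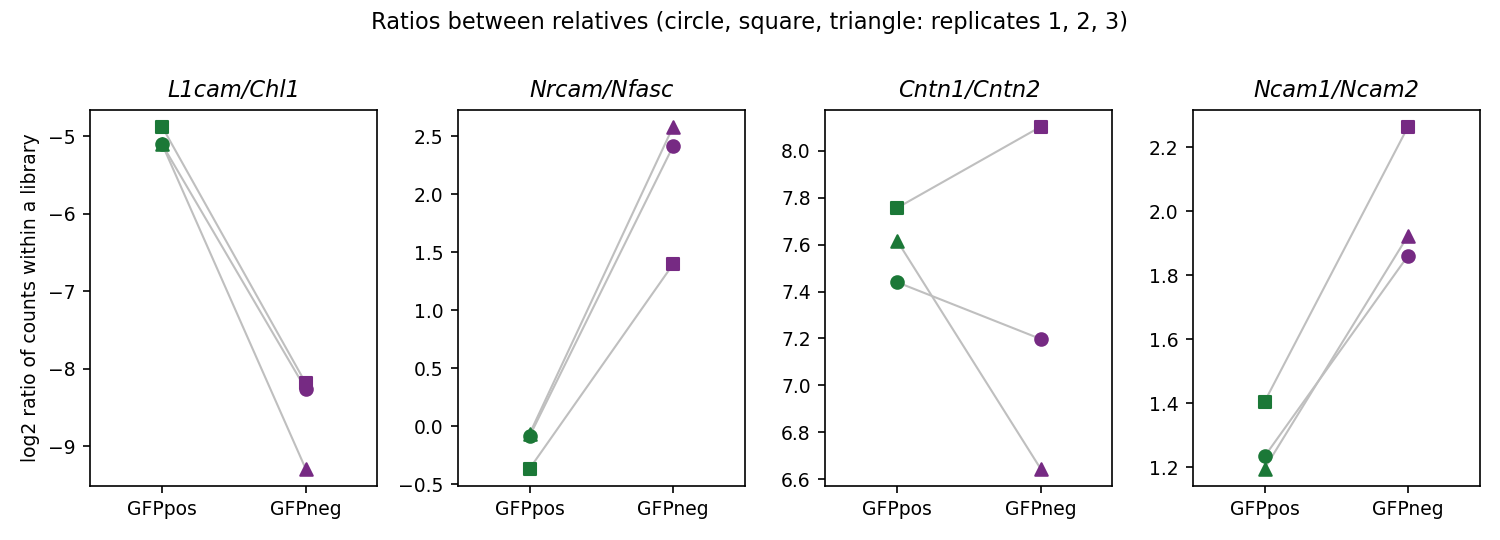
Log2 ratio of counts of paired relatives within each library, with GFPpos at the left and GFPneg at the right; each panel has its own log2 axis, which does not start at 0, and grey lines join libraries that share a number. Fractions are apart for L1cam/Chl1, Nrcam/Nfasc and Ncam1/Ncam2, and overlap for Cntn1/Cntn2.

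Levels of different genes were compared per kilobase of exon, as CPM divided by the union exon length in GENCODE M21, which lay between 7.35 kb for L1cam and 14.1 kb for Nfasc. These lengths may differ from those of the transcripts present and of the annotation used for counting, so small gaps between genes cannot be ordered. In GFPpos cells Cntn1 and Ncam1 stood at the top, with mean levels of 70.6 and 68.2 CPM per kb, and their library ranges overlapped. Cadm2 at 23.2 and Ncam2 at 21.5 CPM per kb came next in GFPpos cells. Their library ranges, 21.9–24.8 and 21.2–21.7 CPM per kb, were separate but close. Below them stood Chl1 at 7.48, Nfasc at 7.29 and Nrcam at 6.81 CPM per kb, each overlapping its neighbour. L1cam at 0.385, Cntn2 at 0.361 and Vcam1 at 0.246 CPM per kb closed the order in GFPpos cells, and neighbours among these 3 overlapped too.

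In GFPneg cells the order was different. Ncam1 led with a mean of 79.5 CPM per kb, apart from Chl1 at 30.2 CPM per kb in the second place. Chl1, Cntn1 at 18.5, Ncam2 at 14.9, Cadm2 at 11.8 and Nrcam at 9.76 CPM per kb each overlapped the next in that order. The place of Cntn1 rested on GFPneg replicate 2, at 34.8 CPM per kb. In GFPneg replicates 1 and 3 it was at 8.73 and 11.9 CPM per kb, below Ncam2 at 14.2 and 15.8 CPM per kb. Vcam1 at 5.24 and Nfasc at 2.16 CPM per kb were separate from their neighbours, and L1cam at 0.139 and Cntn2 at 0.101 CPM per kb overlapped at the bottom. Cntn1 took 29.4–41.0% of the summed per-kb level of the 10 genes in GFPpos libraries and 5.97–16.9% in GFPneg libraries. Chl1 took 3.36–4.20% in GFPpos and 15.2–20.9% in GFPneg libraries, Ncam1 30.5–35.7% in GFPpos and 44.9–47.7% in GFPneg libraries, and Vcam1 0.0811–0.142% in GFPpos and 2.31–4.05% in GFPneg libraries. For these 4 genes the ranges of the fractions did not overlap, and since shares add up to a whole, a larger share of one gene lowers those of the others.

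**Figure D4:**
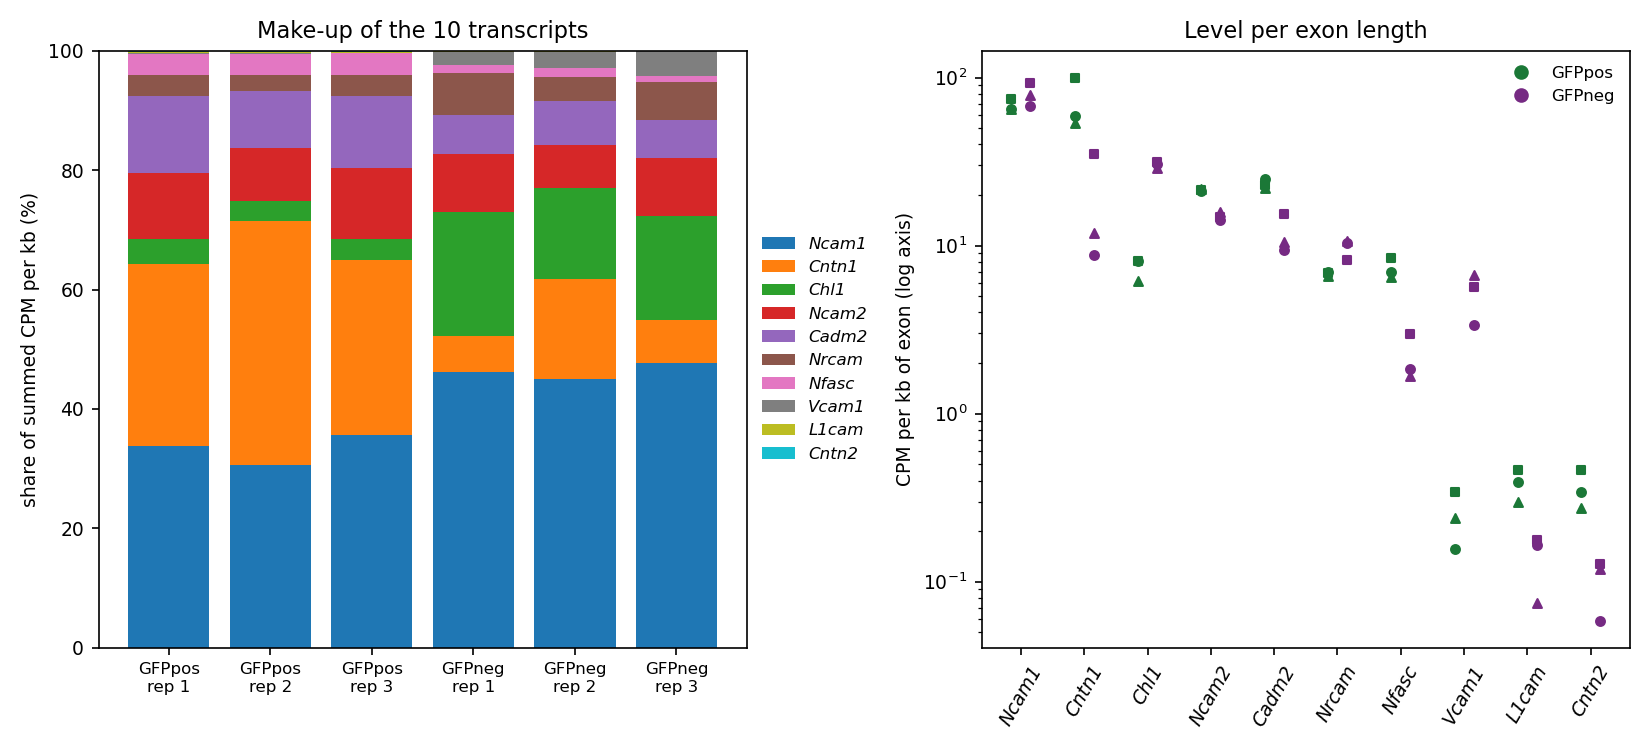
Left, stacked bars from 0 to 100% give each gene's share of the summed CPM per kb of exon of the 10 adhesion genes, one bar per library, GFPpos libraries first. Right, CPM per kb of exon on a log axis, one symbol per library, with GFPpos left of GFPneg for each gene. Ncam1 and Cntn1 together take 64.3–71.5% of each GFPpos bar and 52.2–61.8% of each GFPneg bar.

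The extracellular partners of these molecules were listed next, namely receptors, matrix proteins and integrins that bind them. Of 24 listed genes 21 were tested, and 4 were higher in GFPpos cells, 12 were lower and 5 were not called, and the median log2 fold change was -0.51 against -0.0058 over all tested genes. Over all tested genes 26.1% were higher and 29.2% lower. Without the libraries of number 3 the count of lower genes was 7. Among the partners of contactins, Tnr, the matrix protein tenascin-R, had 294, 324 and 260 CPM in GFPpos replicates 1, 2 and 3, against 30.1, 50.5 and 25.6 CPM in GFPneg replicates 1, 2 and 3. Tnc, its relative tenascin-C, had 172, 263 and 116 CPM in GFPpos libraries, against 3591, 3511 and 2459 CPM in GFPneg libraries. The tenascins thus moved in opposite directions without overlap, with log2 fold changes of 3.04 for Tnr and -4.12 for Tnc (edgeR adjusted p = 2.64e-05 and 2.23e-05).

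Ptprz1, a receptor phosphatase that binds Cntn1, stood at 3326, 2933 and 3253 CPM in GFPpos replicates 1, 2 and 3, against 3277, 2928 and 3474 CPM in GFPneg replicates 1, 2 and 3, and the fractions overlapped. Its log2 fold change was -0.025 (SE 0.087, edgeR adjusted p = 0.824), with a sign that turned when GFPpos replicate 2, GFPneg replicate 3 or both libraries of number 3 were left out. Cntnap1, the paranodal partner of Cntn1, was at 9.74 CPM on average in GFPpos and 8.56 CPM in GFPneg cells, a log2 fold change of 0.19 that was not called (edgeR adjusted p = 0.224). Cntnap2, the partner of Cntn2, reached at most 0.0883 CPM in GFPpos and 0.0956 CPM in GFPneg libraries and was not tested. Cntnap4 was lower in GFPpos cells, at 0.441 CPM on average against 2.50 CPM in GFPneg cells, with a log2 fold change of -2.51 (edgeR adjusted p = 0.00345).

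For Vcam1, the integrin subunits Itga4 and Itgb1 form the best-known receptor. Itgb1 had 365, 373 and 367 CPM in GFPpos replicates 1, 2 and 3, against 575, 523 and 520.2 CPM in GFPneg replicates 1, 2 and 3, and was lower in GFPpos cells without overlap (log2 fold change -0.55, edgeR adjusted p = 0.000116). Itga4 had 19.8, 26.6 and 23.4 CPM in GFPpos libraries, against 27.8, 43.1 and 28.4 CPM in GFPneg libraries, and passed the threshold narrowly at -0.51 (edgeR adjusted p = 0.0450). That call was lost in 6 of 17 other settings, with adjusted p-values up to 0.161. Itgav, a subunit of several matrix-binding integrins that also binds L1cam, was lower in GFPpos cells at 94.5 CPM on average against 345 CPM in GFPneg cells (log2 fold change -1.87, edgeR adjusted p = 5.21e-06). Itga9, another integrin subunit of the list, went the other way without overlap. It had 97.7 CPM on average in GFPpos and 35.2 CPM in GFPneg cells (log2 fold change 1.47, edgeR adjusted p = 0.00076).

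Receptors that the NCAMs and L1 engage on the same cell differed in direction. Fgfr1, a fibroblast growth factor receptor that binds Ncam1 and L1cam, had 70.6, 72.3 and 69.0 CPM in GFPpos replicates 1, 2 and 3, against 214, 191 and 199 CPM in GFPneg replicates 1, 2 and 3. Gfra1, a receptor for the growth factor GDNF that can use Ncam1 as a co-receptor, had 70.2, 61.5 and 59.3 CPM in GFPpos libraries, against 18.3, 27.2 and 21.2 CPM in GFPneg libraries. Neither gene overlapped between fractions, and the log2 fold changes were -1.51 for Fgfr1 and 1.52 for Gfra1 (edgeR adjusted p = 1.93e-06 and 6.21e-05).

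In the cytoplasm, all 22 listed partners were tested; 7 were higher in GFPpos cells, 9 were lower and 6 were not called, with a median log2 fold change of -0.11, where 26.1% of all tested genes were higher and 29.2% lower. The ankyrins, which hold L1 family proteins at the spectrin skeleton through the motif shown above, were split. Ank2 had 550.4, 569 and 578 CPM in GFPpos replicates 1, 2 and 3, against 1044, 836 and 1227 CPM in GFPneg replicates 1, 2 and 3. Ank3 had 146, 143 and 121 CPM in GFPpos libraries, against 297, 247 and 233 CPM in GFPneg libraries. Both were lower in GFPpos cells without overlap, by log2 fold changes of -0.87 for Ank2 and -0.92 for Ank3 (edgeR adjusted p = 0.000593 and 0.000188), while Ank1 was higher by 1.13 (edgeR adjusted p = 0.000119).

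Other membrane skeleton genes also went both ways. Ezr and Msn, the ezrin and moesin that link surface proteins such as L1cam to actin, were lower in GFPpos cells, with log2 fold changes of -3.67 and -2.23 (edgeR adjusted p = 9.73e-06 and 3.78e-06). Ezr had 5.56, 5.45 and 5.82 CPM in GFPpos replicates 1, 2 and 3, against 86.0, 46.9 and 81.5 CPM in GFPneg replicates 1, 2 and 3. Sptbn4, the spectrin of nodes of Ranvier, was at 12.8 CPM on average in GFPpos cells against 2.48 CPM in GFPneg cells, higher by 2.36 (edgeR adjusted p = 9.2e-06). Epb41l3, a paranodal band 4.1 protein that also binds Cadm proteins, was higher by 2.10, and Cask, a scaffold for Cadm proteins, by 0.97 (edgeR adjusted p = 5.76e-05 and 0.000476). Dcx, the microtubule protein doublecortin, which binds phosphorylated neurofascin, had 128, 137 and 122 CPM in GFPpos libraries, against 5.22, 17.0 and 7.03 CPM in GFPneg libraries. Its log2 fold change was 3.73 (edgeR adjusted p = 9.22e-05), and 4.41 without GFPneg replicate 2.

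Genes that modify or shed these molecules were listed as well, and all 18 were tested. Of these, 10 were higher in GFPpos cells, 5 were lower and 3 were not called, and the median log2 fold change was 0.32; without the libraries of number 1, and likewise without those of number 3, 3 were lower. The shares over all tested genes were 26.1% higher and 29.2% lower. Both polysialic acid synthases of Ncam1 were higher in GFPpos cells. St8sia4 had 12.8, 13.5 and 12.7 CPM in GFPpos replicates 1, 2 and 3, against 1.55, 5.58 and 1.81 CPM in GFPneg replicates 1, 2 and 3, and St8sia2 had 12.8, 8.46 and 11.7 CPM in GFPpos libraries, against 4.31, 4.49 and 4.80 CPM in GFPneg libraries. Neither overlapped between fractions, with log2 fold changes of 2.13 for St8sia4 and 1.27 for St8sia2 (edgeR adjusted p = 0.00312 and 0.000418). Without GFPneg replicate 2, where St8sia4 was highest among GFPneg libraries, its log2 fold change was 2.96.

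The glucuronyltransferases B3gat1 and B3gat2, which build the HNK-1 sugar carried by NCAM and L1 family proteins, were higher in GFPpos cells by 0.98 and 1.42 on the log2 scale (edgeR adjusted p = 3.79e-06 and 5.8e-05). St8sia3, a sialyltransferase of other glycans, was higher by 4.35 (edgeR adjusted p = 2.62e-05), at 2.21 CPM on average in GFPpos and 0.105 CPM in GFPneg cells. St8sia5, which acts on gangliosides, was lower by -1.69 on the log2 scale (edgeR adjusted p = 0.0335), a call lost in 6 of 17 other settings; without GFPpos replicate 3 its log2 fold change was -2.48. Among the proteases that cut L1 family and NCAM ectodomains, Adam10 had a log2 fold change of -0.084 and was not called (edgeR adjusted p = 0.177). Adam17 was lower in GFPpos cells, at 54.7, 54.6 and 55.8 CPM in GFPpos replicates 1, 2 and 3, against 89.8, 87.0 and 89.1 CPM in GFPneg replicates 1, 2 and 3 (log2 fold change -0.69, edgeR adjusted p = 1.79e-05). Bace1, a protease that cuts Chl1, was at 55.9 CPM on average in GFPpos and 44.2 CPM in GFPneg cells (log2 fold change 0.34, edgeR adjusted p = 0.00508), a call lost when both libraries of number 1 or of number 3 were left out. Adam8, another protease of the list, was at 6.81 CPM on average in GFPpos and 3.57 CPM in GFPneg cells (log2 fold change 0.93, edgeR adjusted p = 0.00137).

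**Figure D5:**
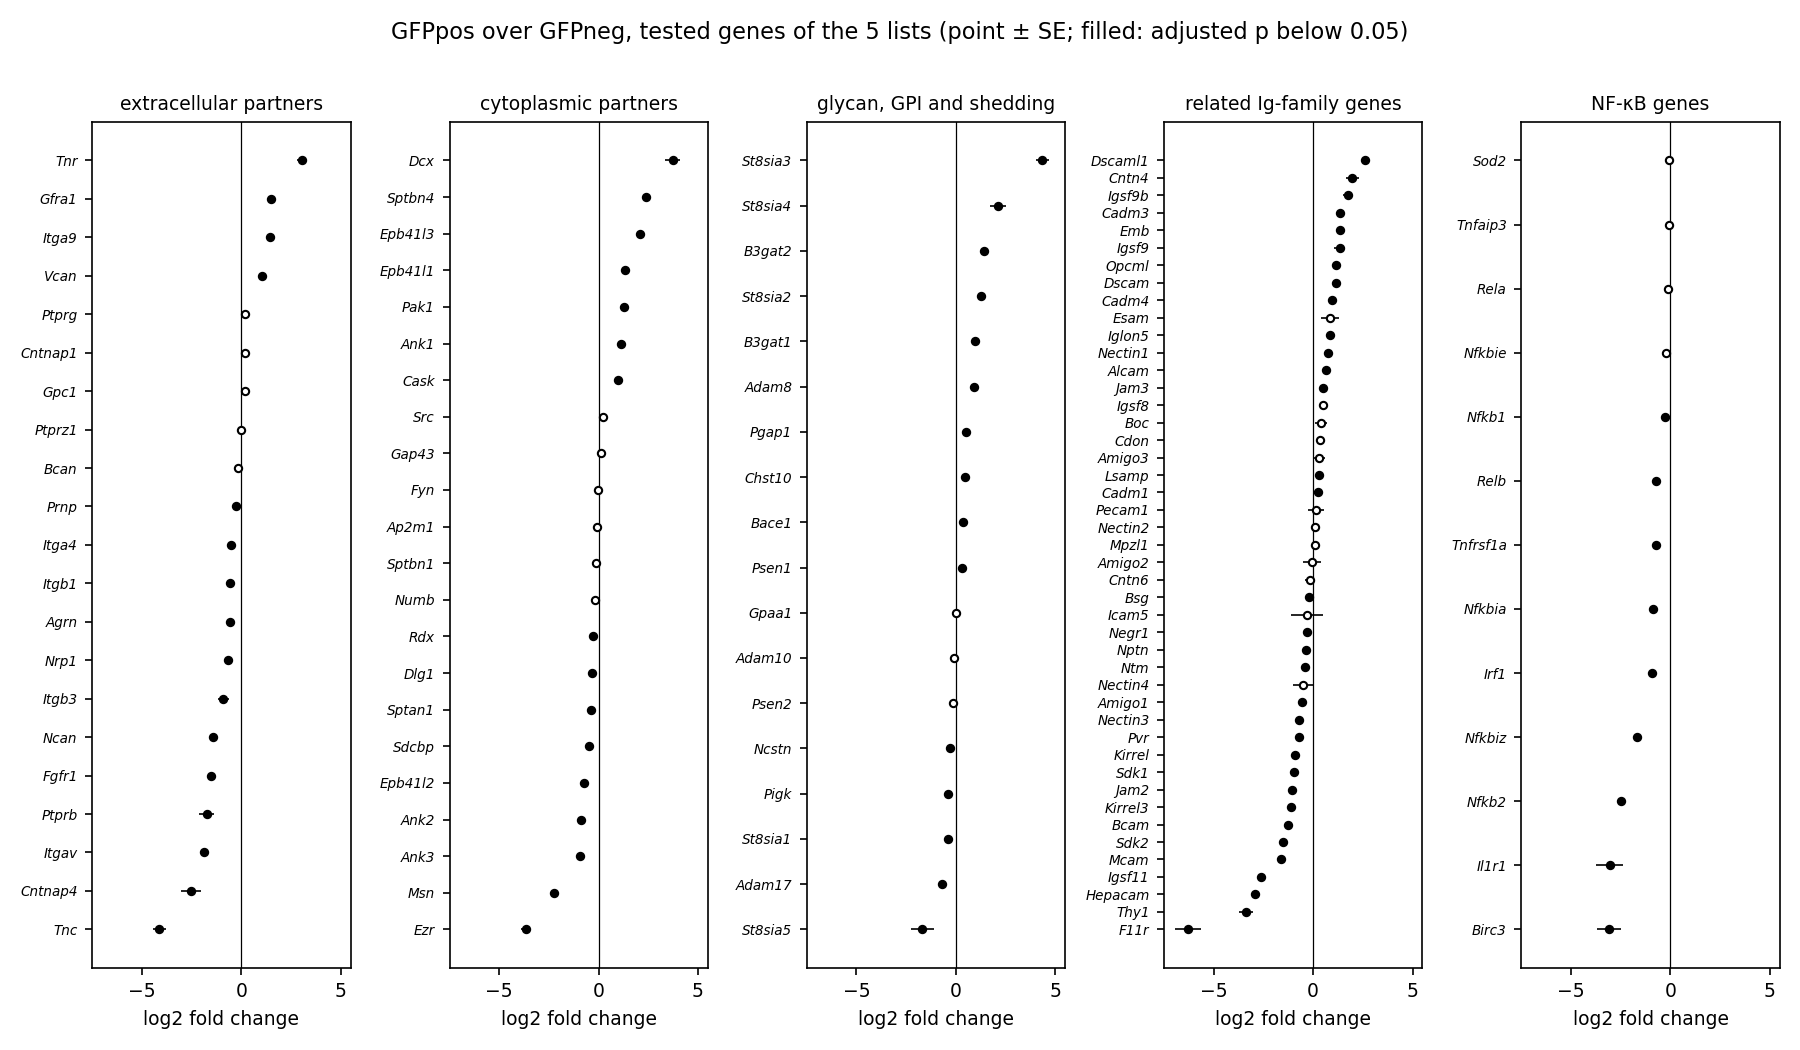
Log2 fold change of GFPpos over GFPneg ± SE from edgeR for every tested gene of 5 lists, sorted within each list; filled points have an adjusted p below 0.05, and the vertical line marks 0. The lists of partners, of modifying genes and of related adhesion genes have filled points on both sides of 0, whereas the 9 filled points among the NF-κB genes all lie below it.

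Related genes of the immunoglobulin superfamily had calls in both directions. Of 55 listed relatives 45 were tested, and 15 were higher in GFPpos cells, 18 were lower and 12 were not called, with a median log2 fold change of 0.11. Among all tested genes 26.1% were higher and 29.2% lower. Hepacam, an adhesion molecule of astrocytes, had 36.9, 34.8 and 42.6 CPM in GFPpos replicates 1, 2 and 3, against 295, 260.3 and 324 CPM in GFPneg replicates 1, 2 and 3. Dscaml1, a relative of the Down syndrome cell adhesion molecule, had 286, 328 and 305 CPM in GFPpos libraries, against 40.4, 59.7 and 52.0 CPM in GFPneg libraries. Their log2 fold changes were -2.94 and 2.60 (edgeR adjusted p = 1.79e-06 and 4.49e-06), with no overlap. Thy1, a lipid-anchored surface protein, and Igsf11, an adhesion protein of the same superfamily, were lower in GFPpos cells by log2 fold changes of -3.38 and -2.64 (edgeR adjusted p = 0.000104 and 1.65e-05). Opcml, which stands both in this list and among the precursor markers, was higher by 1.15 (edgeR adjusted p = 9.74e-05). Of the relatives of Cadm2, Cadm1, Cadm3 and Cadm4 were higher by 0.23, 1.35 and 0.93 (edgeR adjusted p = 0.0491, 7.43e-05 and 6.91e-05), and Cadm1 overlapped between fractions. Of the other contactins, Cntn4 was higher by 1.98 (edgeR adjusted p = 0.0014). Cntn6 was not called, at -0.16 (edgeR adjusted p = 0.627), and Cntn3 and Cntn5 were not tested.

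Vcam1 is a known target of the transcription factor NF-κB, so other genes of that pathway were listed. Of 20 listed genes 13 were tested, and 9 were lower in GFPpos cells, 4 were not called and none was higher, with a median log2 fold change of -0.74. Among all tested genes 29.2% were lower. Nfkb2, a subunit of the factor, had 3.54, 2.96 and 3.10 CPM in GFPpos replicates 1, 2 and 3, against 18.5, 13.0 and 21.4 CPM in GFPneg replicates 1, 2 and 3 (log2 fold change -2.46, edgeR adjusted p = 2.78e-05). Nfkbiz, Irf1 and Nfkbia were lower by log2 fold changes of -1.69, -0.94 and -0.90 (edgeR adjusted p = 7.08e-06, 0.000961 and 0.000315). The 4 genes not called were Rela, another subunit, Nfkbie, Tnfaip3 and Sod2. Their log2 fold changes were -0.14, -0.25, -0.070 and -0.053 (edgeR adjusted p = 0.118, 0.108, 0.779 and 0.450). The part of NF-κB in the level of Vcam1 was not tested. Icam1, another endothelial adhesion molecule and target of the pathway, reached at most 0.136 CPM in GFPpos and 0.259 CPM in GFPneg libraries and was not tested. The low-count genes of this list that were not tested reached at most 0.667 CPM.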

How the data were processed

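Bulk RNA of 3 GFPpos and 3 GFPneg libraries was grouped by the sorted fraction in the titles. RNA was prepared with the RNeasy kit and libraries with the SMART-Seq Stranded kit, per the labels' protocols. The submitters' processing notes list the mm39 build with TopHat2 2.1.1 and featureCounts 2.0.0, besides SAMtools 1.9, MultiQC 1.9, FastQC 0.11.8 and bcl2fastq 2.20.0.422. The annotation is not given in the sources used here, nor is the strand setting of the counting. The deposited table holds raw counts per gene, per the file headers, for 26264 genes, of which 4856 had no count. Totals of 31067850 to 45207335 counts per library bound counting error only, since PCR copies are included.

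From these counts edgeR 4.0.16 (R 4.3.3) computed the main comparison, with TMM scaling, filterByExpr, a quasi-likelihood F test without a block, and Benjamini-Hochberg adjustment over 14554 genes at 0.05. The SE of a log2 fold change is its absolute value over the root of F, and CPM uses the scaled library sizes. Ratios of paired genes used a pseudocount of 0.5 and an exact permutation test. The GENCODE M21 annotation of GRCm38 gave exon lengths, overlaps and sequences; since its build differs from that of the files, no gene coordinates are printed. The edgeR fit was tested on simulated counts, with far fewer changed genes than were called here and no effect of the library number. The other steps were not tested in this way.

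Titles give libraries numbers shared by both fractions. After the fraction means were removed, libraries with the same number correlated across genes at 0.271, 0.433 and 0.233, each above 0.1. Those with different numbers correlated at -0.37 to 0.177. The value of 0.177, for GFPpos replicate 3 with GFPneg replicate 1, was also above 0.1. Deviations cancel within a fraction, so higher values in some pairs come with lower values in others. The main fit and the permutation test did not use pairing by number. A block by number was an alternative setting, and the blocked value is printed where it changes the call of a gene named by the rule below. With the block 8340 genes were called, against 8058 without it, and 4 adhesion genes were lower, against 3. Replicates of a fraction differed beyond counting noise, with 9.83 to 34.2 for chi-square over its degrees of freedom.

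The genes and lists were chosen with earlier results of these data known. Named genes were the 10 adhesion genes, Pdgfra, a set of partners, and in each of 5 lists the 4 called genes with the largest absolute log2 fold change among those with a mean CPM of at least 1, plus the called gene of the other direction with the smallest p. Genes named outside this rule (Ank1, Epb41l3, Cask, B3gat1, Adam8, Itga9, Opcml, Cadm1, Cadm3, Cadm4, Cntn3, Cntn4, Cntn5, Cntn6, Icam1, Rela, Nfkbie, Tnfaip3, Sod2, Sox10, Olig1, Olig2, Cspg4, Bmp4, Enpp6, Notch3, Col1a1, Pdgfrb and markers at 0) were chosen after their values were seen. Alternatives were RLE and upper-quartile scaling, library totals, no filter, a CPM of at least 1 in 3 libraries, DESeq2 1.42.0, limma-voom (limma 3.58.1), the replicate block, and leaving out each library and each number.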

Additional observations from a re-analysis of the deposited data

How the results depend on the processing

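Under 17 other settings, the 10 adhesion genes kept direction and side of the threshold in 166 of 170 values, and none changed sign; the exceptions were Cntn1 and Ncam1, as given above. With the replicate block Ncam1 was called lower in GFPpos cells (log2 fold change -0.21, edgeR adjusted p = 0.0313), and the block changed no other call among the genes named by the rule above. In the lists it gave 6 extracellular partners, 8 cytoplasmic partners and 17 relatives called higher, against 4, 7 and 15 without it. Leaving out libraries gave 5 to 6 adhesion genes called higher and 3 to 4 lower. Over all genes it gave 2450 to 4169 higher, lowest without the libraries of number 3, for extracellular partners 7 to 13 lower, and for modifying and shedding genes 3 to 5 lower. The log2 difference of the Cntn1 to Cntn2 ratio ran from -0.046 to 0.68, and was -0.046 without GFPneg replicate 3. The log2 fold change of Ptprz1 ran from -0.081 to 0.039 over these leave-outs, and was 0.039 without GFPpos replicate 2, 0.039 without GFPneg replicate 3 and 0.017 without the libraries of number 3. The 33 other named genes kept direction and call in 544 of 561 values, and 234 of 238 counts stayed within 1.5 times. The cause of these changes was not tested, apart from fewer samples by construction. L1cam and Cntn2, with 17 to 196 counts per library, are the adhesion genes whose precision depth limits most. Replicate 2 stood apart in both fractions, but with groups of 3 no test for outlying libraries was run.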
